A study of Homo sapiens with 8 samples.

Results

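Oxidative phosphorylation (OXPHOS) is the set of reactions of the inner mitochondrial membrane that turns electrons from nutrients into ATP. The transcripts described here come from its nuclear genes, chosen by name: rows typed as protein-coding whose symbol belongs to a subunit of complexes I to IV, to cytochrome c or to ATP synthase, with a mean of at least 1 CPM (a count rescaled so that libraries of unequal depth compare) over the 8 libraries. This rule used no comparison between time points. It took 78 of 36474 genes: 34 of complex I, 4 of complex II, 9 of complex III, 1 for cytochrome c, 11 of complex IV, 18 of ATP synthase, and NDUFA4, a subunit named after complex I that sits in complex IV. Another 7 symbols of the pattern lay below the level. NDUFV2 was just below it at 0.896 CPM, COX7B2 had 0.76 and NDUFA7 0.42, and COX7A1, COX8C, COX6B2 and ATP5MGL had 0.097 or less. Just above it were NDUFA13 at 3.41 and NDUFB8 at 4.58 CPM.

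The libraries came from LNCaP, an established line grown from a metastasis of a human prostate carcinoma. All cells, those of 0 h included, had been starved for 6 to 12 h in medium lacking serum and calcium, and ASPN (recombinant human asporin, a secreted protein of the extracellular matrix) was then given at 100 ng/mL. RNA was collected at 0 h (2 libraries), 12 h (3) and 24 h (3). Cells held in that medium for the same times with no ASPN were not analysed here, so ASPN and time in the medium cannot be told apart. The replicates are labelled biological, all of this 1 line, and a 0 h library carries no replicate number that the labels give. Library totals ran from 73406825 to 96962135 counts, and with 3 counts as the limit for a gene at 0, levels under 0.0309 to 0.0409 CPM could not be told from none, by counting error only. Transcripts of prostate luminal cells were abundant: the 7 markers summed to 3826 to 4547 CPM in every library, and FOLH1 and KLK3 led them. Of 11 markers of fibroblasts, endothelium and leukocytes in the table, 8 stayed under 1 CPM in every library, CD3E and CDH5 among them, while COL1A1 lay at 18.9 to 21.3 CPM, VWF at 11.2 to 17.3 CPM and LUM at 0.945 to 1.83 CPM. These 11 summed to 36.5 to 38.3 CPM at 0 h, 35.0 to 37.4 at 12 h and 31.3 to 33.8 at 24 h, and their part in the results was not tested. Values are relative to each library's total, so a loss or gain of all RNA per cell would not be seen.

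Complex I (NADH dehydrogenase) and complex II (succinate dehydrogenase) pass electrons to ubiquinone, complex III passes them on to cytochrome c, and complex IV (cytochrome c oxidase) hands them to oxygen. The protons that complexes I, III and IV pump drive ATP synthase. All the complexes except II combine nuclear subunits with subunits encoded in mitochondrial DNA, and their nuclear genes are known targets of the transcription factors NRF1, GABPA and YY1. Prostate luminal cells are known for a tricarboxylic acid (TCA) cycle that exports citrate, and prostate carcinoma for a greater use of oxidation.

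Promoters were searched for these factors' motifs because the transcript of NRF1 itself fell, as described below. RefSeq promoters, 250 bases before to 50 bases after the start in GRCh38.p14, were matched by symbol for 64 of the 78 genes. The NRF1 motif GCGCATGCG (reverse complement CGCATGCGC) lay on either strand in 10 of these 64 (15.6%), against 2.10% of 27305 promoters of all genes and 3.49% of the promoters of protein-coding genes tested. The GABPA motif CCGGAAGT was in 10 (15.6%, against 4.44% of all and 8.16% of the promoters of protein-coding genes tested). The YY1 motif AAGATGGCG was in 7 (10.9%, against 1.85% and 3.63%). At least 1 of the 3 was in 24 (37.5%, against 7.86% and 14.3%). Matches on both strands overlap where the NRF1 motif is read in both directions, as in ATP5F1C. The 100 bases before the start are shown for the 5 genes with the NRF1 motif in that stretch, and for COX8A. Of the 8 genes that passed a test below, CYC1 and NDUFB5 were not among the 64, and COX8A was the 1 of the other 6 with any of the motifs. They are read 5′ to 3′ on the strand of the gene, and capitals mark the NRF1 motif, or the GABPA motif in COX8A. A match is a description of letters and no sign that the factor binds.
ATP5F1C: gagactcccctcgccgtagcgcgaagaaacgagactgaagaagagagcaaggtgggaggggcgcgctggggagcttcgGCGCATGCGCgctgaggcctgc
ATP5MC2: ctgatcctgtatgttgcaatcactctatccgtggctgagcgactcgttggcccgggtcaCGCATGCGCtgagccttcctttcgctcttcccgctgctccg
ATP5ME: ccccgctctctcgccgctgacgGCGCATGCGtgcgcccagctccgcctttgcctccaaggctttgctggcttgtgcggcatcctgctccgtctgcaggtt
NDUFS6: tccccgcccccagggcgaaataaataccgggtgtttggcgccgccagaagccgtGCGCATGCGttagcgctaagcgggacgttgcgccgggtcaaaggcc
NDUFS7: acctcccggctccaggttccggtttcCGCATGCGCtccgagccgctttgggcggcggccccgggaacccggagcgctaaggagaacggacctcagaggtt
COX8A: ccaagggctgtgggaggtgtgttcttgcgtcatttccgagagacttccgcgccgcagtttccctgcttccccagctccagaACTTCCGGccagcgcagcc
The stretches lie at chr10:7788077-7788176 (plus strand), chr12:53676084-53676183 (minus), chr4:674277-674376 (minus), chr5:1801307-1801406 (plus), chr19:1383807-1383906 (plus) and chr11:63974520-63974619 (plus). They belong to the gamma subunit of the ATP synthase head, a gene for the c ring, the membrane subunit e, 2 iron-sulfur or accessory subunits of complex I, and a small subunit of complex IV. None of the 10 genes with the NRF1 motif passed edgeR's test in any comparison described below (NDUFS6 at 24 h and ATP5MC2 between 24 h and 12 h had an unadjusted p under 0.05). Among the 397 protein-coding genes tested whose promoter holds it, 14.6% passed at 12 h and 18.6% at 24 h. Among the 10977 whose promoter lacks it, 16.12% and 22.25% passed. Nothing is read from a count over 10 genes. The log2 changes of the 10 ran from -0.09 to 0.17 at 12 h and from -0.06 to 0.13 at 24 h.

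Levels were compared between genes as mean CPM per kb of the Ensembl canonical transcript, which need not be the transcript these cells use. The 78 genes spanned 1.38 to 696 on this scale with a median of 93.2. ATP5F1B, the catalytic beta subunit of ATP synthase, was highest, followed by NDUFB4 at 546, a membrane-arm subunit of complex I, and UQCRH at 459, the hinge protein of complex III. Complex IV had the highest median (166), ATP synthase had 138, complex I 66.5, complex III 64.1 and complex II 50.3. NDUFA9, an accessory subunit of complex I with a canonical transcript of 8356 bases, was lowest, and SDHA, the flavoprotein of complex II, was next at 4.20. Counting limits bear on SDHA: rows of its pseudogenes held 9122 counts against 7651 for the gene, so its level is uncertain. For NDUFV2, left out by the rule, a pseudogene row held 3778 counts against 607. Of the 78 genes, 24 had more than 10% of their exon bases within another gene, with ATP5ME at 61.3% and NDUFS7 at 51.4%, and the counting is not stated to use strand, so such reads cannot be assigned with certainty. All 8 genes that passed a test below had less overlap than that, 7.26% for NDUFB5 and 0 for the other 7.

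**Figure D1:**
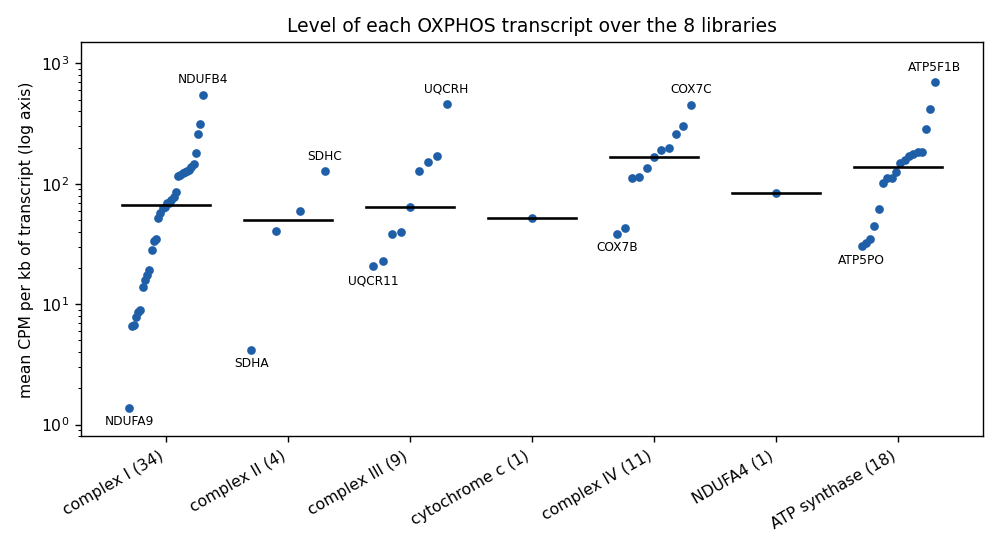
Mean CPM per kb of canonical transcript over the 8 libraries (log axis) for each of the 78 genes, by complex, with the number of genes in brackets and a bar at the median. Points run from 1.38 for NDUFA9 to 696 for ATP5F1B, and the highest and lowest gene of each complex are named.

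Across the libraries each of these levels moved little. The highest library exceeded the lowest by at most 1.399 times, with a median of 1.16 over the 78 genes. COX5A, a structural subunit of complex IV, varied least (130 to 136 CPM), and NDUFB11, a membrane-arm subunit of complex I, varied most. Summed over the 78 genes, each library held 0.993% to 1.08% of its counts. The coefficient of variation between replicates, as edgeR fits it, had a median of 4.07% over these genes against 5.59% as the common value of all genes.

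The comparison of 12 h with 0 h asked which transcripts had changed by that time after ASPN. Of the 78 genes, 5 were higher and 3 were lower at an adjusted p of at most 0.05, and 70 did not pass; adjusted p throughout is the Benjamini-Hochberg value of edgeR's quasi-likelihood test over 21071 genes. The higher ones were CYC1, NDUFB10, NDUFB7, ATP5IF1 and COX8A, and the lower ones NDUFB5, COX7A2L and CYCS. All 8 changes were small, between -0.25 and 0.25 on the log2 scale. As a share of the 78 genes the higher ones made 6.41%, against 4.85% of all genes tested, and the lower ones 3.85%, against 6.75%. The 78 are all protein-coding, and of 14261 protein-coding genes tested 958 were higher and 1332 lower. Both directions together made 10.3% of the 78 genes and 16.1% of the protein-coding genes. None of the 78 reached the 1.5-fold change that the study also asks for, against 1.05% of all genes tested, with edgeR or DESeq2. At an unadjusted p under 0.05 there were 14. Every 95% interval of the 78 lay within 0.46 of 0 on the log2 scale, where 1.5-fold is 0.58. The median log2 change was 0.046, against -0.00069 over all genes tested, with 53 values above 0 and 25 below.

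CYC1 encodes cytochrome c1, which passes electrons from the Rieske protein of complex III to cytochrome c. It had 162 and 170 CPM at 0 h, 198, 188 and 187 at 12 h, and 185, 183 and 182 at 24 h. Both later groups lay wholly above 0 h. The log2 change was 0.20 (SE 0.045) at 12 h with adjusted p 0.00247, and 0.14 (SE 0.045) at 24 h with adjusted p 0.026. NDUFB10, an accessory subunit of the membrane arm of complex I, had nearly the same course, from 156 and 164 CPM at 0 h to 193, 179 and 180 at 12 h and 176, 176 and 177 at 24 h. Its log2 changes were 0.20 (SE 0.046, adjusted p 0.00306) and 0.14 (SE 0.046, adjusted p 0.0302). These were the 2 genes higher at both times.

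NDUFB7, another membrane-arm subunit of complex I, had the largest log2 change at 12 h. It stood at 63.6 and 64.2 CPM at 0 h and at 85.8, 69.3 and 72.6 at 12 h, with replicate 1 far above the others. At 24 h it was back at 66.5, 67.8 and 64.7 CPM. The log2 change was 0.25 (SE 0.062, adjusted p 0.0078) at 12 h and 0.054 (SE 0.062, adjusted p 0.648) at 24 h. ATP5IF1, the inhibitor protein that blocks ATP hydrolysis by ATP synthase, had 131 and 135 CPM at 0 h, 159, 146 and 143 at 12 h and 143, 144 and 144 at 24 h. Replicate 1 of 12 h was again the highest library, and both later groups lay above 0 h. Its change was 0.17 (SE 0.048, adjusted p 0.0189) at 12 h and 0.11 (SE 0.048, adjusted p 0.116) at 24 h. COX8A, a small membrane subunit of complex IV, had 85.8 and 95.3 CPM at 0 h, 105, 99.3 and 100.2 at 12 h and 91.3, 91.0 and 92.7 at 24 h. The 12 h libraries lay above all others, by 0.16 against 0 h (SE 0.050, adjusted p 0.0295), while those of 24 h fell between the 0 h values.

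Of the 3 that fell at 12 h, COX7A2L was the steadiest. This protein, related to a complex IV subunit, joins complexes III and IV into supercomplexes. It had 114 and 105 CPM at 0 h, 95.7, 98.3 and 92.0 at 12 h and 95.7, 95.1 and 94.0 at 24 h, with both later groups wholly below 0 h. Log2 changes were -0.20 (SE 0.048, adjusted p 0.00516) and -0.21 (SE 0.048, adjusted p 0.00251), the latter the lowest of the 78 at 24 h. NDUFB5, a membrane-arm subunit of complex I, had 39.1 and 34.9 CPM at 0 h, 28.3, 32.9 and 32.3 at 12 h and 31.5, 32.1 and 33.9 at 24 h. Its changes were -0.25 (SE 0.066, adjusted p 0.012), the lowest at 12 h, and -0.19 (SE 0.066, adjusted p 0.0476). CYCS encodes cytochrome c, the mobile carrier between complexes III and IV that also triggers the caspase cascade when released. It had 316 and 290 CPM at 0 h, 248, 282 and 272 at 12 h and 271, 289 and 284 at 24 h, so that 12 h replicate 1 was the lowest library. The log2 change was -0.18 (SE 0.050, adjusted p 0.0147) at 12 h and -0.11 (SE 0.050, adjusted p 0.158) at 24 h. Transcripts for both sides of the step from complex III to cytochrome c were thus among the 8, CYC1 higher and CYCS lower. Neither 12 h call passed with offsets for length and GC content. Without 0 h replicate 1 the log2 changes at 12 h were 0.17 for CYC1 and -0.12 for CYCS.

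**Figure D2:**
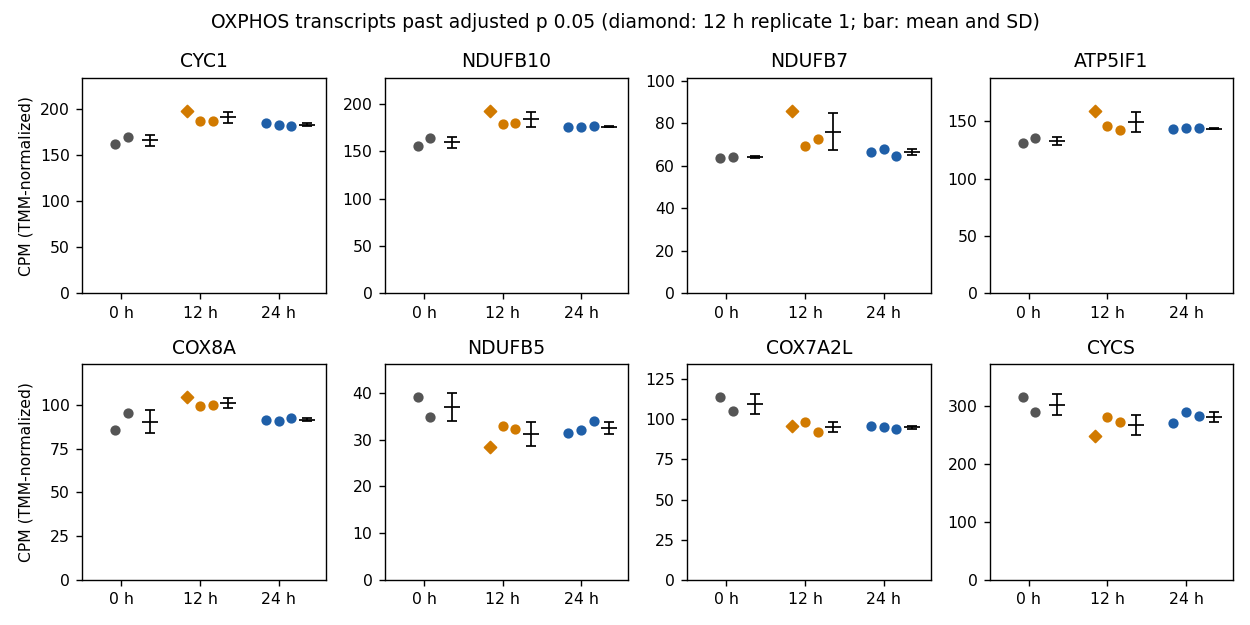
TMM-normalized CPM in each library for the 8 genes with an adjusted p of at most 0.05 at 12 h or 24 h against 0 h. Points are libraries, diamonds are 12 h replicate 1, and bars give mean and SD (n = 2, 3 and 3). CYC1 and NDUFB10 lie above 0 h at both times and COX7A2L and NDUFB5 below it, while NDUFB7 is at 85.8 CPM in the diamond library and at 69.3 and 72.6 in the other 12 h libraries.

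These 8 calls rest on few libraries. Without 0 h replicate 1, none of the 78 passed in either comparison with 0 h (adjusted p 0.0869 to 0.533 for the 8 at 12 h and 0.105 to 0.525 for the 4 at 24 h), and 624 genes of all tested passed at 12 h where 2443 had. Without 12 h replicate 1, 4 passed at 12 h, namely CYC1, NDUFB10, NDUFB7 and COX7A2L, the other 4 having adjusted p 0.0515 to 0.0701, and 8 passed at 24 h. COX8A was also lost without 12 h replicate 3 (adjusted p 0.0549) or 24 h replicate 3 (0.0514). Leaving out any library of 24 h left COX7A2L alone past the threshold at 24 h, with adjusted p 0.0526 to 0.173 for CYC1, NDUFB10 and NDUFB5, and NDUFB5 was lost there without 12 h replicate 3 too (0.0614). Replicate 1 of 12 h was apart in these genes as a whole: their median deviation from each gene's mean over the 8 libraries was 0.067 in it, against 0.0063 and 0.0014 in the other 12 h libraries, -0.028 and -0.018 at 0 h and -0.0049 to 0.0013 at 24 h. Transcript length moved with it, in classes chosen after the values were seen. Among other protein-coding genes with a mean of at least 10 CPM, the 418 with transcripts of at most 1000 bases had a median deviation of 0.072 in 12 h replicate 1, and the 5407 with transcripts over 3000 bases had -0.044. In 0 h replicate 1 these medians were reversed, -0.043 for the short and 0.034 for the long. The OXPHOS transcripts are short, with a median of 784 bases against 3067 over genes with at least 1 CPM, and 44 of 78 have at most 1000. The 5 that rose at 12 h have 494 (COX8A), 503 (ATP5IF1), 535 (NDUFB7), 675 (NDUFB10) and 1191 (CYC1) bases, and the 3 that fell have 2282 (COX7A2L), 4199 (NDUFB5) and 5432 (CYCS). With offsets for length and GC content, 9 genes passed at 12 h, but CYC1, NDUFB7, COX8A, NDUFB5 and CYCS were not among them.

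**Figure D3:**
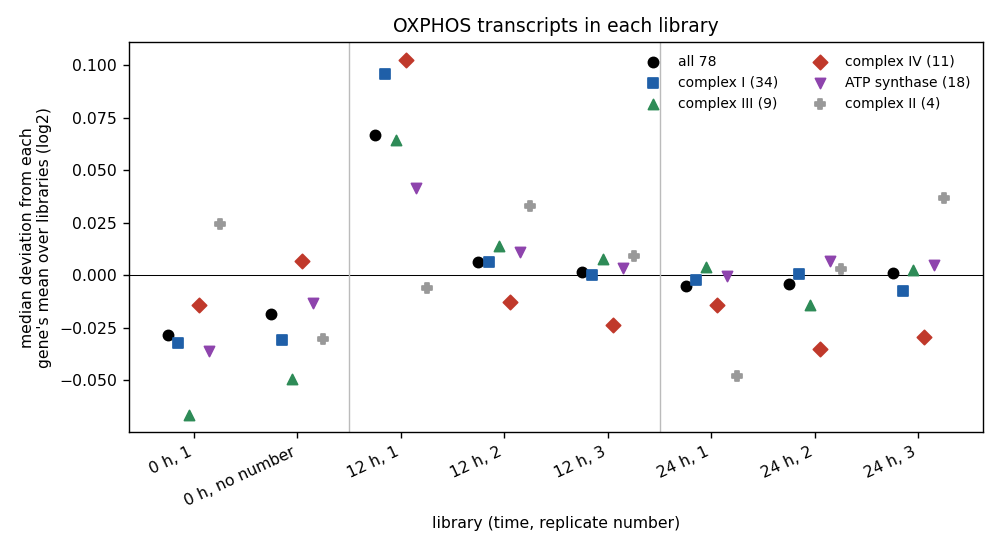
Median log2 deviation from each gene's own mean over the 8 libraries, by complex (symbols) and library (horizontal axis). In 12 h replicate 1 the median is 0.067 for all 78 genes, which in the other libraries lie between -0.028 and 0.0063. By complex, 12 h replicate 1 is at 0.096 for complex I, -0.0058 for II, 0.064 for III, 0.10 for IV and 0.042 for ATP synthase.

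In no complex did most genes pass. Values above 0 at 12 h and 24 h were 26 and 24 of 34 in complex I and 1 and 1 of 4 in complex II. They were 8 and 7 of 9 in complex III, 6 and 3 of 11 in complex IV, and 11 and 13 of 18 in ATP synthase. Whether the genes of a complex moved together was not tested. In complex I, 2 of 34 genes rose, 1 fell and 31 did not pass at 12 h, with a median log2 change of 0.065. The electron-input N module (8 genes) and the ubiquinone-binding Q module (5) had no gene that passed at either time with edgeR (an unadjusted p under 0.05 in 1 and 3 genes of the N module at 12 h and 24 h and in 0 of the Q module), with medians of 0.053 and 0.092 at 12 h and of 0.023 and 0.033 at 24 h. All 3 complex I genes that passed belong to the other 21, the accessory and membrane-arm subunits. Of the core subunits, NDUFV1, which binds NADH, was at 195 ± 2.85 CPM (SD, n = 2) at 0 h, 211 ± 13.3 at 12 h (SD, n = 3) and 195 ± 4.8 at 24 h (SD, n = 3). NDUFS1, the largest iron-sulfur subunit, had log2 changes of -0.088 and -0.11, neither past the test (adjusted p 0.252 and 0.0953), with all later libraries below 0 h.

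None of the 4 complex II genes passed with edgeR (0 at 12 h and 1 at 24 h had an unadjusted p under 0.05), with medians of -0.020 and -0.028, which turned to 0.015 and 0.036 with length and GC offsets and to 0.0029 and 0.032 without 0 h replicate 1. SDHB, the iron-sulfur subunit, was at 57.6 ± 0.48 CPM at 24 h (SD, n = 3) against 63.0 ± 3.0 at 0 h (SD, n = 2), a log2 change of -0.13 with adjusted p 0.088. In complex III, CYC1 was the 1 gene of 9 that passed, and the medians were 0.081 and 0.039. UQCRC1, a core protein, had log2 changes of 0.098 and 0.063 and UQCRFS1, the Rieske iron-sulfur protein, of 0.074 and 0.039, without passing. In complex IV, COX8A rose and COX7A2L fell at 12 h and COX7A2L alone fell at 24 h, of 11 genes, with medians of 0.036 and -0.014. The median of complex IV at 12 h was -0.012 without 12 h replicate 1, and at 24 h it was 0.038 with length and GC offsets and 0.0042 without 24 h replicate 3. COX4I1, COX5A and COX5B, subunits around the catalytic core, were within 0.11 of 0 h on the log2 scale at both times. In ATP synthase, ATP5IF1 was the 1 of 18 that passed, at 12 h, with medians of 0.033 and 0.010. Of the 5 genes of the catalytic head none passed with edgeR (an unadjusted p under 0.05 in 0 at 12 h and 1 at 24 h), with 4 of 5 values above 0 at each time. ATP5F1A had 880 ± 12.6 CPM at 0 h (SD, n = 2), 905 ± 4.6 at 12 h and 914 ± 13.1 at 24 h (SD, n = 3), and ATP5F1B 1207 ± 12.2, 1250 ± 17.6 and 1212 ± 4.7. Both later groups of ATP5F1A and the 12 h group of ATP5F1B lay wholly above 0 h. ATP5F1D, the delta subunit, named here after its values were seen, had 166 and 182 CPM at 0 h and 189, 188 and 187 at 24 h, a log2 change of 0.12 with adjusted p 0.107.

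**Figure D4:**
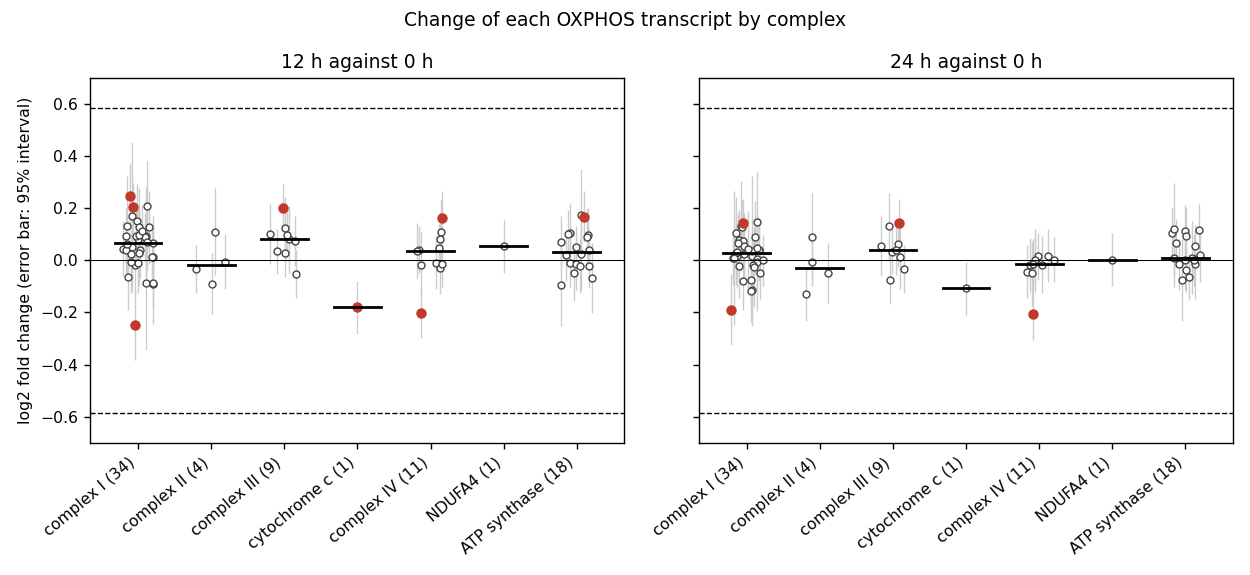
Log2 fold change against 0 h with its 95% interval for each of the 78 genes, by complex, at 12 h (left) and 24 h (right). Filled points have an adjusted p of at most 0.05 (8 on the left, 4 on the right), thick bars are medians, dashed lines mark 1.5-fold, and no interval reaches them.

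The comparison of 24 h with 0 h used the same 0 h libraries, so it is no independent repeat. CYC1 and NDUFB10 were higher and NDUFB5 and COX7A2L were lower, and 74 of the 78 genes did not pass, while 13 had an unadjusted p under 0.05. Higher calls made 2.56% of the 78 genes against 7.82% of all genes tested, and lower calls 2.56% against 8.49%. None was changed 1.5-fold, against 2.45% of all genes tested. Every interval lay within 0.34 of 0 on the log2 scale. The largest fitted increase was 0.15 in NDUFA11 (10.3 and 10.3 CPM at 0 h, 11.5, 11.9 and 10.8 at 24 h), a membrane-arm subunit of complex I, with adjusted p 0.344. The median log2 change was 0.011, against -0.0031 over all genes tested, with 49 values above 0 and 29 below.

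With edgeR, 1.12% of all genes tested were higher at 24 h than at 12 h and 1.61% lower, and 0.18% were also changed 1.5-fold. Of the protein-coding genes tested 3.76% passed. No gene of the 78 passed, in either direction. At an unadjusted p under 0.05 there were 10, all lower at 24 h, and DESeq2 called NDUFB7 and COX8A. The lowest value was that of NDUFB7, -0.19 (SE 0.055, adjusted p 0.0528), and the highest that of NDUFB8, a complex I subunit near 4.6 CPM, 0.094 (SE 0.11, adjusted p 0.794). The median was -0.034 against 0.0035 over all genes tested, and 54 of 78 values were below 0. Genes were also counted whose libraries did not overlap between groups. At 12 h against 0 h, 21 genes lay wholly above (26.9%, against 17.3% of all genes tested) and 5 wholly below (6.41%, against 19.6%). At 24 h these were 23 (29.5%, against 21.5%) and 10 (12.8%, against 21.7%). Between 24 h and 12 h, 0 lay above (against 10.3%) and 10 below (12.8%, against 9.33%), and 12 h replicate 1 takes part in the 12 h counts.

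Isoform genes kept their order. ATP5MC1, ATP5MC2 and ATP5MC3 encode the same mature c subunit of the proton-turning ring with different import signals. Per kb of transcript, ATP5MC2 gave 67.3% to 72.0% of the total of the 3 in every library, ATP5MC1 18.6% to 22.1% and ATP5MC3 9.46% to 10.8%, and the ranges do not overlap. The order of ATP5MC1 and ATP5MC3 rests on their canonical lengths, 646 and 2587 bases. Without division by length ATP5MC3 was the higher of these, at 151 to 168 CPM against 74.8 to 85.7 CPM. ATP5MC2 had 250 and 263 CPM at 0 h, 310, 254 and 264 at 12 h and 258, 257 and 256 at 24 h, with 12 h replicate 1 apart. None of the 3 passed at any time with edgeR, each having an unadjusted p under 0.05 in 1 comparison. Of the tissue forms of complex IV, COX6A1, COX6B1, COX7A2 and COX7B were at 71.5 to 138 CPM in every library, while COX7A1, the form of heart and muscle, and the testis forms COX6B2, COX7B2 and COX8C were below the level of the rule; COX4I2 and COX6A2 were not analysed here. NDUFA4 was at 158 to 178 CPM with a log2 change of 0.053 at 12 h and 0.0026 at 24 h. Its paralog NDUFA4L2, a gene known to be induced by hypoxia and not in the rule, was also abundant in all libraries: 223 and 235 CPM at 0 h, 228, 176 and 240 at 12 h and 198, 184 and 227 at 24 h. Its libraries overlapped between all groups (adjusted p 0.803 at 12 h and 0.586 at 24 h).

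Among known regulators of these genes, NRF1 had the largest change at 12 h and at 24 h. NRF1, nuclear respiratory factor 1, had 41.7 and 37.5 CPM at 0 h, 30.1, 26.2 and 29.0 at 12 h and 26.6, 26.0 and 25.3 at 24 h, with no overlap with 0 h. It fell by 0.48 on the log2 scale (SE 0.065, adjusted p 4.97e-06) at 12 h and by 0.61 (SE 0.065, adjusted p 2.44e-08) at 24 h, past 1.5-fold at 24 h. Both calls at an adjusted p of 0.05 held in all 18 alternatives, those leaving out a library included. The log2 change at 24 h ran from -0.676 to -0.534 in them, where 1.5-fold is 0.585, so the 1.5-fold change did not hold in all. Of the 11 regulators listed, NRF1 fell and MYC rose at 12 h, and at 24 h NRF1 fell while MYC, ESRRA and PPARGC1B rose. These calls made 18.18% of the list at 12 h, against 16.1% of protein-coding genes tested, and 36.36% at 24 h, against 22.03%. Whether the list differed from other genes was not tested. The median over the list was 0.028 at 12 h and 0.11 at 24 h. MYC, a growth regulator, rose by 0.16 (SE 0.042, adjusted p 0.00933) and 0.15 (SE 0.042, adjusted p 0.0118). ESRRA, the orphan receptor that works with PGC-1 coactivators, had 81.2 and 85.3 CPM at 0 h and 99.6, 96.3 and 96.5 at 24 h, a change of 0.23 (SE 0.049, adjusted p 0.000972). With length and GC offsets it was 0.10 (adjusted p 0.0774), and the call held in the other 17 alternatives. PPARGC1B, the coactivator PGC-1 beta, rose by 0.29 (SE 0.10, adjusted p 0.0421) from 6.70 CPM. PPARGC1A was at 0.591 to 1.03 CPM in every library, and GABPA (-0.19, adjusted p 0.0547 at 12 h), PPRC1, TFAM, TFB2M, POLRMT and HIF1A did not pass. Without 0 h replicate 1 the adjusted p of MYC was 0.0663 at 12 h and 0.064 at 24 h (0.0609 at 24 h without 24 h replicate 3) and that of PPARGC1B 0.149, and PPARGC1B was also lost without any other library of 0 h or 24 h (0.0663 to 0.171).

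Assembly factors, which build the complexes without remaining in them, were listed by complex. The clearest changes were in 3 of the 6 for complex III. UQCC3, needed for cytochrome b assembly, had 8.75 and 9.68 CPM at 0 h, 13.02, 12.7 and 12.4 at 12 h and 13.9, 12.96 and 14.3 at 24 h. It rose by 0.46 (SE 0.084, adjusted p 0.000284) and 0.57 (SE 0.084, adjusted p 5.95e-06), and passed in all 18 alternatives. BCS1L and LYRM7 both act in the insertion of the Rieske protein, BCS1L as its translocase and LYRM7 as its chaperone. BCS1L rose from 25.3 and 28.4 CPM to 33.2, 32.6 and 32.9 at 12 h (log2 change 0.29, SE 0.062, adjusted p 0.0015) and LYRM7 fell from 75.1 and 68.4 to 56.1, 62.0 and 60.1 (-0.27, SE 0.054, adjusted p 0.000759). At 24 h they were at 0.20 (adjusted p 0.0202) and -0.16 (adjusted p 0.0408). Without 0 h replicate 1 neither passed, with adjusted p 0.125 and 0.413 for BCS1L and 0.0836 and 0.476 for LYRM7. At 24 h BCS1L was also lost without 24 h replicate 1 or 3 (0.0594 and 0.0779), and LYRM7 passed in 11 of 18 alternatives. Of 22 complex IV factors, COX19 (-0.24, adjusted p 0.0449) and LRPPRC, which stabilises mitochondrial mRNA, fell at 12 h, and LRPPRC fell at 24 h (-0.15 and -0.18, adjusted p 0.0231 and 0.00383). Of 14 complex I factors, NDUFAF4 alone passed, at 12 h (-0.22, adjusted p 0.0331), and the 4 complex II and 3 ATP synthase factors had none with edgeR (an unadjusted p under 0.05 in 1 complex II factor at 24 h and in no ATP synthase factor against 0 h). These calls were lost too without 0 h replicate 1, with adjusted p 0.122 for COX19, 0.355 and 0.102 for LRPPRC and 0.508 for NDUFAF4. With length and GC offsets the log2 change at 12 h was -0.045 for LRPPRC (adjusted p 0.463) and -0.094 for NDUFAF4 (adjusted p 0.389). Of 18 alternatives, COX19 passed in 6, NDUFAF4 in 11 and LRPPRC in 13 at 12 h and 17 at 24 h. At 12 h and 24 h, passing genes made 9.09% and 4.55% of the complex IV factors and 7.14% and 0% of the complex I factors, below the shares of protein-coding genes.

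**Figure D5:**
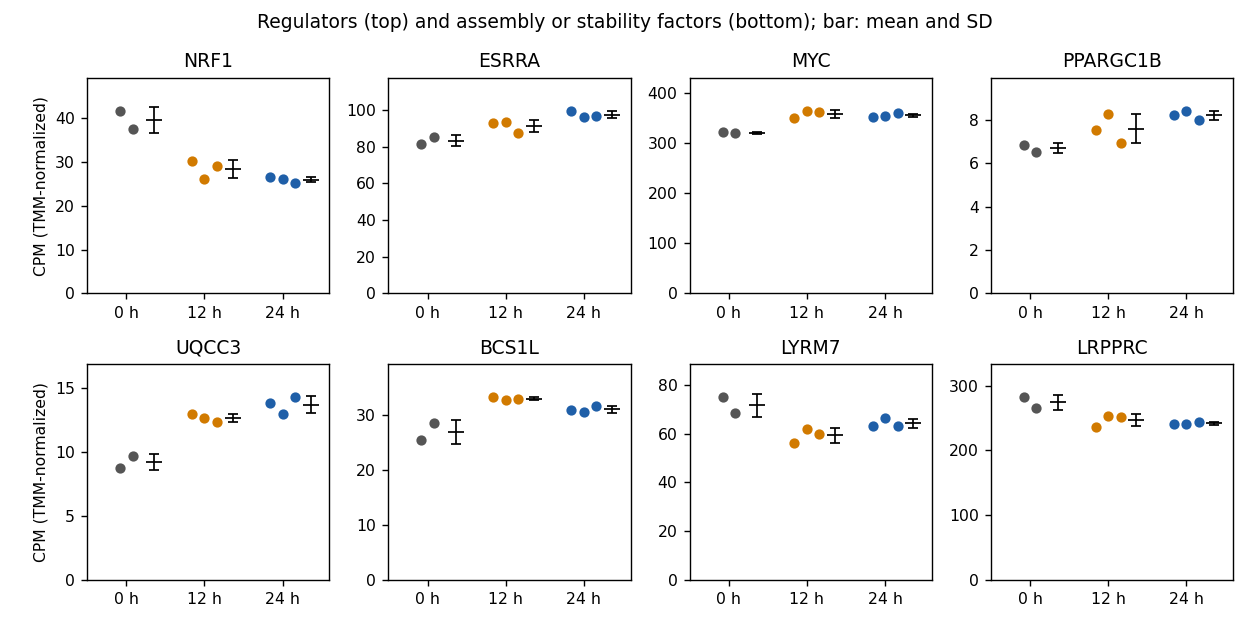
TMM-normalized CPM in each library for 4 regulators (top) and 4 assembly or stability factors (bottom) of the fixed lists, with mean and SD (n = 2, 3 and 3). NRF1 falls from 37.5 to 41.7 CPM at 0 h to 25.3 to 26.6 at 24 h, UQCC3 rises from 9.68 or less to 12.96 or more at 24 h, and the other panels show smaller shifts.

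The partner subunits encoded in mitochondrial DNA were abundant. Of 13 genes, MT-ND1 fell at 12 h (-0.13, SE 0.044, adjusted p 0.0463), where 12 of 13 values were below 0 and 6 had an unadjusted p under 0.05. None passed at 24 h with edgeR, where 0 had an unadjusted p under 0.05 and 13 of 13 values were above 0. Medians were -0.065 at 12 h and 0.031 at 24 h. MT-ND1 passed in 5 of 18 alternatives and was lost without either 0 h library, 12 h replicate 3 or any 24 h library (adjusted p 0.061 to 0.34). Selection of poly(A) RNA bears on such transcripts, and their share of counts was 4.25% to 4.94%. Among 14 TCA cycle genes, OGDH, which acts on 2-oxoglutarate, rose at both times (0.15 and 0.18, adjusted p 0.0436 and 0.00721). DLD fell at 12 h (-0.15, adjusted p 0.0477), and at 24 h IDH3G rose (0.17, adjusted p 0.0243) and IDH2 fell (-0.16, adjusted p 0.0112). Without 0 h replicate 1 the adjusted p of OGDH was 0.685 and 0.367, that of DLD 0.552 and that of IDH3G 0.0639, and without the unnumbered 0 h library that of IDH2 was 0.0886. Of 18 alternatives, DLD passed in 6, OGDH in 11 at 12 h and 17 at 24 h, IDH3G in 13 and IDH2 in 15. Of 77 genes of the mitochondrial ribosome, 4 rose and 3 fell at 12 h and 6 rose and 4 fell at 24 h, with medians of 0.014 and -0.00046. Of 85 tested genes of the cytosolic ribosome, 0 rose and 3 fell at 12 h and 0 rose and 1 fell at 24 h. Passing genes made 9.09% and 12.99% of the mitochondrial ribosome list at 12 h and 24 h, and 3.53% and 1.177% of the cytosolic one. For the TCA cycle list these shares were 14.29% and 21.43%. All lay below the 16.1% and 22.03% of protein-coding genes tested.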

How the data were processed

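RNA of LNCaP cells was sequenced as TruSeq mRNA libraries. The authors trimmed adapters with Cutadapt, aligned reads to GRCh38 with STAR and counted them per GENCODE gene with featureCounts, and the deposited values are these raw counts per gene, not normalized. Strand and multi-mapping options are not given in the sources used here, and the authors left out a time-0 library for quality. Columns were mapped to samples by time and replicate number. The second 0 h column carries a number that no label has and was used without a number. No column was left unused.

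Counts were tested by the robust quasi-likelihood method of edgeR 4.0.16 (R 4.3.3), after TMM normalization and the filterByExpr filter, in a model of all 8 libraries with a coefficient for each time point, with Benjamini-Hochberg adjustment over the 21071 genes kept. CPM values are TMM-normalized. SE values were derived from the fold change and F. The study's thresholds are an adjusted p of 0.05 and a fold change of 1.5. All p-values measure the spread between these libraries. Replicates differed by more than sampling noise (chi-square per degree of freedom 5.10 to 13.8), so each counted once. The procedure was tested on simulated counts.

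The gene rule, lists and motifs were chosen with earlier results of these data known. Genes named are all that passed, the catalytic subunits and isoform families, the extremes of each comparison, and regulators. Other genes of fixed lists are named where they passed. A gene that the naming rule covers is not reported here. Coordinates of GENCODE release 44 on GRCh38 equalled those in the table for all 30996 genes with the same versioned identifier. Transcript lengths come from release 44, promoters from RefSeq. Alternatives were RLE and upper-quartile factors, other filters, DESeq2 1.42.0, models of only the time points compared, length and GC offsets, protein-coding genes alone, thinned counts, pseudogene counts added, the replicate number as a block, and leaving out each library.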

Additional observations from a re-analysis of the deposited data

Results flagged for a closer look

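No group has 4 or more libraries, so no test for a single outlying library was made. The difference between the effects at 12 h and 24 h is the comparison of 24 h with 12 h, and no nuclear OXPHOS gene passed it (10 had an unadjusted p under 0.05, and DESeq2 called NDUFB7 and COX8A). It was passed by 6 of the 13 protein-coding genes of mitochondrial DNA (46.2%), all higher at 24 h. Of all genes tested 1.12% were higher at 24 h than at 12 h, and of the protein-coding genes tested 3.76% passed. On the log2 scale MT-ND1 was 0.15 higher, MT-ND2 0.18, MT-ND3 0.19, MT-CO3 0.19, MT-ATP6 0.16 and MT-ATP8 0.16, with adjusted p 0.00983 to 0.0446. MT-ND3, for example, had 479, 528 and 490 CPM at 12 h and 571, 592 and 541 at 24 h, beside 528 and 558 at 0 h. Across 19 alternatives these calls held in 16 for MT-ND1 and MT-ND3, 15 for MT-ND2, 11 for MT-CO3, 10 for MT-ATP8 and 7 for MT-ATP6, and none of the 6 passed without 12 h replicate 3 (adjusted p 0.0859 to 0.347), 24 h replicate 1 (0.0703 to 0.232) or 24 h replicate 2 (0.178 to 0.316).

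FOXRED1, a complex I assembly factor, was 0.17 lower at 24 h than at 12 h (log2 change -0.17, SE 0.047, adjusted p 0.043), with 58.04, 55.7 and 56.8 CPM at 12 h and 50.5, 50.4 and 50.7 at 24 h. That call was lost when 12 h replicate 1 or 3 or any library of 24 h was left out (adjusted p 0.0706 to 0.164). IDH2, the mitochondrial NADP-dependent isocitrate dehydrogenase, changed by -0.21 (SE 0.040, adjusted p 0.00179), from 189, 179 and 187 CPM to 159, 157 and 164, and passed in all 19 alternatives. Among the luminal markers, KLK3 changed by -0.18 (SE 0.043, adjusted p 0.0129) and FOLH1 by 0.21 (SE 0.037, adjusted p 0.000677) between 12 h and 24 h.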

How the results depend on the processing

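Of the counts of calls and the medians over all 78 OXPHOS genes, 138 values under the alternatives stayed about the same. Another 17 were higher counts, 24 were lower counts and 1 was a median that moved. A count was taken as the same when equal or within 1.5 times. A median was taken as the same when within 0.023, its SD between libraries of a group. These labels do not follow signs, but the median over all 78 genes kept its sign in every alternative. Medians of single complexes lay near 0: against 0 h that of complex II changed sign in 2 of 19 alternatives at each time and that of complex IV in 1 at 12 h and 2 at 24 h, and between 24 h and 12 h that of complex II did in 11 of 20 and that of ATP synthase in 1. Adding a fold change of 1.5 left 0 higher and 0 lower calls in both comparisons with 0 h. At 24 h against 0 h, RLE factors, upper-quartile factors, DESeq2 and thinning each left 1 lower call. In fits to the compared time points, 3 were higher at 12 h and 4 at 24 h. Length and GC offsets gave 8 higher and 1 lower at 12 h and at 24 h, with a median of 0.045 at 24 h. Between 24 h and 12 h, where the main count was 0, 1 lower gene was called with RLE factors, no low-count filter, the compared time points, length and GC offsets or thinning, and 2 with DESeq2, a mean of 100 normalized counts or protein-coding genes alone.

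Leaving out each library in turn gave 0 to 9 higher and 0 to 3 lower at 12 h, 0 to 5 higher and 0 to 3 lower at 24 h, and 0 to 2 lower between 24 h and 12 h. With 0 h replicate 1 or the unnumbered library left out, the remaining 0 h library is assumed to vary like the other groups. The cause of these shifts was not tested.

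The 12 h and 24 h libraries shared 3 replicate numbers and 0 h shared only number 1 with them. Over 12 h and 24 h, deviations of same-numbered libraries correlated at 0.19, 0.037 and 0.0086 over 9525 genes. Libraries with different numbers were not compared in this way, so whether same-numbered samples share more than a number was not tested. With the number as a block, 2 of the 78 genes were lower between 24 h and 12 h and 865 genes passed, against 663 in the same libraries unblocked. No paired analysis was possible because of fewer than 2 shared numbers in the comparisons with 0 h. Genes near 4 CPM (NDUFA13, NDUFB8) had the widest intervals.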

Other observations

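Transcripts of the luminal cell type, several of them known targets of the androgen receptor, were mostly higher at both later times. Of 7 markers, 6 rose at 12 h and 7 at 24 h with edgeR, against 4.85% and 7.82% of all genes tested. Medians were 0.24 at both times. The exception was FOLH1 at 12 h, with a log2 change of -0.083 (adjusted p 0.219). These calls were not followed when libraries were left out. KLK3 (prostate-specific antigen) had 912 and 1018 CPM at 0 h, 1386, 1320 and 1361 at 12 h and 1182, 1132 and 1266 at 24 h. The carriers that serve ATP synthase, SLC25A4 and SLC25A5 (which exchange ADP and ATP) and SLC25A3 (phosphate), did not pass in any comparison, 0 of 3 with edgeR (1 had an unadjusted p under 0.05, between 24 h and 12 h), and SLC25A5 lay at 477 to 519 CPM in every library.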
